A study of Takifugu alboplumbeus with 24 samples.

Results

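The genes described here are vegfa, epo, slc2a1 and pfkfb4, 4 genes of the response to low oxygen, measured in brains of the grass puffer, Takifugu alboplumbeus. They were taken from a table of 24935 genes and transcripts by symbol (vegfa, epo) or by gene number (101063282 for the row LOC101063282, named slc2a1 by its product, and 101075480 for LOC101075480, likewise named pfkfb4), and all 4 passed the filter that kept 17058 genes with a mean level of at least 1 FPKM. They were chosen by measured values of this table, the slope over the 8 dates and the difference between tides, so these 2 measures are given as descriptions with no test. The tissue was a single piece of brain that held the hypothalamus, the pituitary and the ventral part of the telencephalon, dissected at about 19:00 from fish caught at a spawning beach at Minamichita in Japan and carried alive to the laboratory. Fish were caught once a week in 2020 at 8 dates, which run in order as New moon May, Waxing moon May, Full moon June, Waning moon June, New moon June, Waxing moon June, Full moon July and Waning moon July, with 3 libraries each and 24 in all. New and full moons bring spring tides (4 dates, 12 libraries) and waxing and waning moons bring neap tides (4 dates, 12 libraries), the contrast for which the fish were collected. No group was treated, all were wild males, and the labels give neither their age nor whether a library holds 1 animal, so p-values measure the spread between these libraries. A library is called a fish below.

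In vertebrates, cells sense oxygen through prolyl hydroxylases of the egln family, which mark the alpha subunits of hypoxia-inducible factor (hif1a and epas1) for destruction through vhl. When oxygen is scarce the alpha subunit is spared, pairs with arnt and switches on genes for vessel growth, red blood cell formation, glucose uptake and glycolysis. The product of vegfa is a secreted growth factor for blood vessels, and that of epo is the hormone that drives red blood cell production. The glucose transporter encoded by slc2a1 lines the blood vessels of the mammalian brain, and pfkfb4 encodes an enzyme that makes and breaks down an activator of phosphofructokinase, a control point of glycolysis.

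Levels are FPKM, the authors' fragments per kilobase of transcript scaled to the mapped fragments of the library, which allow genes to be compared per length. Read depth is unknown, since FPKM hide the number of reads, and no interval for counting error can be had. The FPKM of all genes summed to between 435 and 552 kFPKM per library, and their median was 507 kFPKM over the spring libraries and 452 kFPKM over the neap libraries. The markers of the labelled tissue were present. Neuronal markers summed to between 3086 and 4191 FPKM at spring tide and 3569 and 4033 at neap tide, and pituitary hormone transcripts to between 20140 and 65890 FPKM at spring tide and 499 and 33960 at neap tide. The lowest pituitary value, 499 FPKM, belonged to Waxing moon May fish 2 and stood far below the rest. The lowest library of any other date, at Waning moon June, had 12470 FPKM. Of the markers of the 8 cell type lists that had a row, none had a median of 0 over the libraries with its copies summed. No row was matched to tek, erg, notch3, gata1, epb42, hemgn, mpz or cx3cr1, so these were not checked. Several of the 4 genes have close copies in the table, and reads shared between copies make the level of each copy uncertain.

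The vessel growth factor vegfa was low in May and higher by July. In the first lunar cycle it was 11.4, 12.8 and 12.9 FPKM at New moon May, 10.8, 12.7 and 11.4 at Waxing moon May, 15.9, 21.3 and 16.2 at Full moon June, and 17.1, 12.3 and 18.6 at Waning moon June. In the second it was 10.9, 15.4 and 14.2 FPKM at New moon June, 19.4, 25.4 and 18 at Waxing moon June, 18.5, 18.4 and 20.5 at Full moon July, and 25.5, 17.9 and 21.3 at Waning moon July. The fish of the May dates lay below all fish of the last 3 dates, and New moon June, with 1 fish below most May fish and 2 above all of them, was the lowest of the later 6 dates. The order of date means ran from Waning moon July (21.6 ± 3.81 FPKM, SD, n = 3) to Waxing moon May (11.6 ± 1.00), a ratio of 1.86. Every date in that order overlapped its neighbour, and every gap lay within the larger SD of the pair. Dates that were not neighbours in the order could separate, also when they were 1 week apart. All fish of New moon June (10.9 to 15.4 FPKM) lay below all fish of Waxing moon June (18 to 25.4 FPKM). The last 4 dates averaged 18.8 ± 3.68 FPKM, and the first 4 dates 14.4 ± 2.95 (SD, n = 4 dates). The slope of vegfa at equal tide was 0.11 per week on the log2(FPKM + 1) scale, with an SE of 0.028, and between 0.080 and 0.12 when any 1 date was left out. Markers of other cell types moved over the dates too. Endothelial markers summed to between 245 and 257 FPKM at Waning moon July, the date of the highest vegfa and slc2a1, and to at most 232 FPKM in any fish of the other dates. Oligodendrocyte markers (10 rows, 6 tested) had a median sum of 1540 FPKM over the last 2 dates and 2001 over the first 2. In bulk tissue of this kind, fewer cells of a type and less RNA per cell cannot be told apart, and the part of these markers in the slopes was not tested.

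The erythropoietin gene epo had the lowest level of the 4 and its highest date at Full moon July. Its first-cycle levels were 5.13, 3.65 and 5.72 FPKM at New moon May, 2.88, 5.71 and 2.51 at Waxing moon May, 5.91, 8.32 and 8.17 at Full moon June, and 4.10, 4.05 and 4.63 at Waning moon June. Its second-cycle levels were 2.99, 3.91 and 6.42 FPKM at New moon June, 6.99, 9.46 and 3.33 at Waxing moon June, 11.3, 11.4 and 10.4 at Full moon July, and 8.37, 8.17 and 9.74 at Waning moon July. All 3 fish of Full moon July stood above every other fish, and the fish of Waxing moon June spread over most of the range of the gene. The libraries of Full moon July also stood apart in other measures. Their neuronal markers summed to between 3086 and 3256 FPKM, against 3569 or more in every other library, and their mural markers to between 494 and 557 FPKM, against at most 464. They had the 3 highest FPKM sums as well, 527 kFPKM or more, and the part of these measures in the epo and pfkfb4 levels of that date was not tested. Full moon July averaged 11 ± 0.558 FPKM and Waxing moon May 3.70 ± 1.75 (SD, n = 3 each), a ratio of 2.98. Full moon July did not overlap Waning moon July (8.76 ± 0.855), the next in order. Below that each date overlapped the next, through Full moon June, Waxing moon June, New moon May, New moon June, Waning moon June and Waxing moon May. The slope of epo was 0.16 per week (SE 0.047), and between 0.13 and 0.18 without any 1 date. Its last 4 dates averaged 7.71 ± 2.84 FPKM, and its first 4 dates 5.07 ± 1.67 (SD, n = 4 dates).

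The slc2a1 gene LOC101063282 had the widest range. In the first cycle it was 12.3, 9.37 and 14.4 FPKM at New moon May, 3.22, 7.78 and 5.01 at Waxing moon May, 3.68, 11.8 and 9.90 at Full moon June, and 23.7, 23.5 and 34.4 at Waning moon June. In the second cycle it was 12.2, 19.8 and 17.5 FPKM at New moon June, 25.7, 37.7 and 22 at Waxing moon June, 18.9, 14.6 and 17.1 at Full moon July, and 35.8, 31.4 and 33.3 at Waning moon July. Every fish of the last 3 neap dates lay above every fish of the other 5 dates, whereas the first neap date, Waxing moon May, was the lowest of all. Waning moon July averaged 33.5 ± 2.21 FPKM and Waxing moon May 5.34 ± 2.30 (SD, n = 3 each), a ratio of 6.27. Between the third and the fourth date in the order, Waning moon June (27.2 ± 6.23) and Full moon July (16.8 ± 2.18), lay a gap of 10.3 FPKM with no overlap. All other neighbours in the order overlapped, through New moon June (16.5 ± 3.86), New moon May (12 ± 2.50) and Full moon June (8.46 ± 4.25). Its slope was 0.25 per week (SE 0.066, or 0.083 with the 8 date means as samples). It was the steepest of the 4 and rank 5 of 17058 genes from the top. Without Waxing moon May the slope was 0.11, and without New moon May it was 0.34.

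The pfkfb4 gene LOC101075480 had a slope near 0 and a higher level at each spring date than at the neap date that followed it. It was 35.4, 33.9 and 39.6 FPKM at New moon May, 28.4, 28.2 and 36.8 at Waxing moon May, 31.8, 35.5 and 32.1 at Full moon June, and 29.4, 24.6 and 22.3 at Waning moon June. Later it was 31.3, 28.1 and 33.0 FPKM at New moon June, 25.8, 23.9 and 22.5 at Waxing moon June, 40.5, 44.2 and 42.6 at Full moon July, and 34.2, 23.4 and 28.2 at Waning moon July. The fish of Full moon July, whose libraries also had the lowest neuronal and the highest mural marker sums, stood above all others. Those of Waxing moon June and fish 2 and 3 of Waning moon June made up 5 of the 6 lowest values. Full moon July averaged 42.4 ± 1.86 FPKM and Waxing moon June 24.1 ± 1.63 (SD, n = 3 each), a ratio of 1.76. Full moon July did not overlap New moon May (36.3 ± 2.96), the next in order, and all lower neighbours overlapped. Date means of the summed pituitary hormone markers ran in nearly the same order, from 55020 FPKM at Full moon July to 15970 at Waxing moon June. Only Waxing moon May (19470 FPKM) and New moon June (32130) changed places. The mean of Waxing moon May includes its fish 2, at 499 FPKM. The part of the pituitary in the course of pfkfb4 was not tested. The slope of pfkfb4 was 0.0029 per week (SE 0.023), between -0.032 without Full moon July and 0.031 without Waxing moon May.

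**Figure D1:**
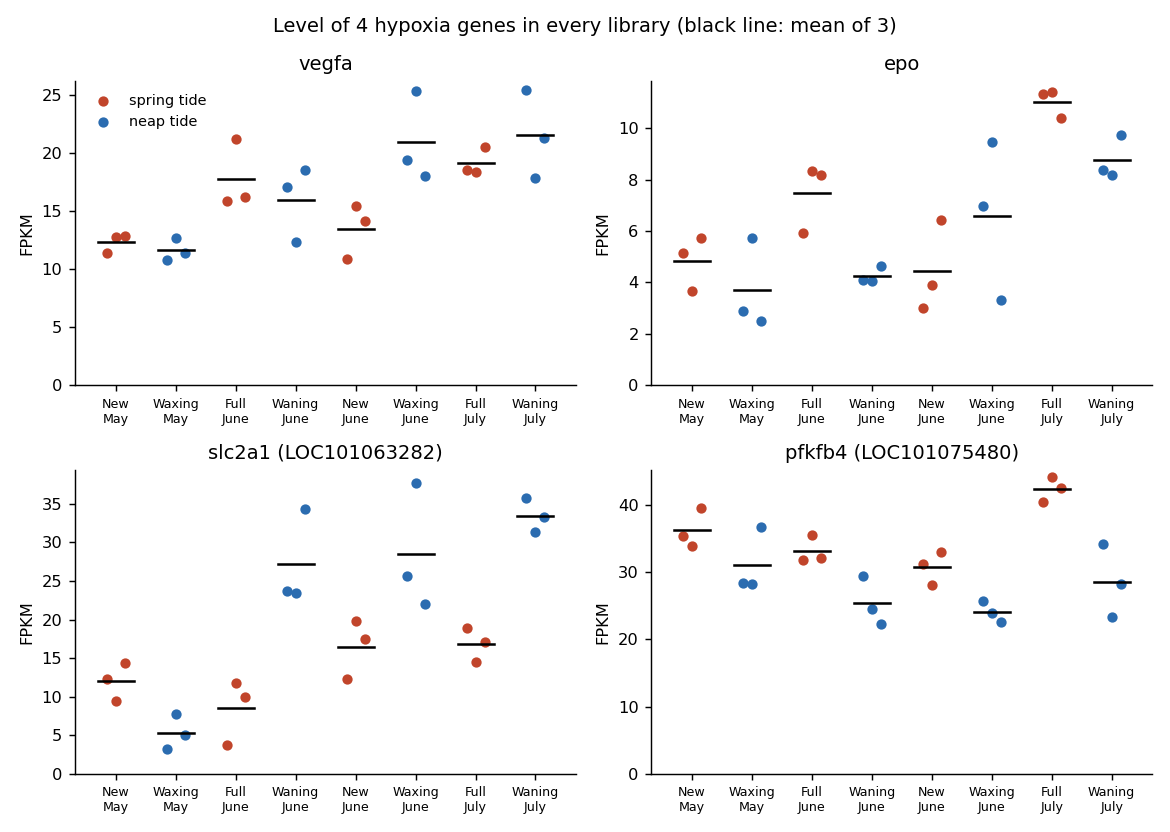
FPKM of vegfa, epo, slc2a1 and pfkfb4 (vertical axes, each from 0) at the 8 sampling dates in order of time; each point is 1 library, red at spring tide and blue at neap tide, and the black line is the mean of 3. The slc2a1 points of the last 3 neap dates, at 22 FPKM or more, stand above all other slc2a1 points, and the epo and pfkfb4 points of Full moon July stand above all others of their gene.

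Set against the whole table, 0 of 17058 genes (0%) had a slope over the dates that passed the threshold, an adjusted p below 0.05 in limma, while 1446 had an unadjusted p below 0.05. The median slope of all tested genes was 0.0050 per week, with 57.8% above 0. Ranked by slope from the top, slc2a1 was at 5, epo at 37, vegfa at 125 and pfkfb4 at 9111. These ranks describe how the genes were picked.

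For the tide, 961 of 17058 genes (5.63%) passed in limma, 225 higher (1.32%) and 736 lower (4.31%) at spring tide. With the 8 date means as samples, 1 passed. When each library was scaled to the same sum, 2974 passed and 116 of them were higher. That scaling moved the median tide difference of all genes to -0.17, against -0.04 as deposited, and the difference of pfkfb4 to 0.25, which lay 0.42 above the median under either scaling. The 4 spring dates averaged 35.7 ± 5.03 FPKM of pfkfb4 (LOC101075480) and the 4 neap dates 27.3 ± 3.19 (SD over dates), a log2 difference of 0.38 with an SE of 0.10 that lay between 0.29 and 0.46 when any 1 date was left out. The level of slc2a1 (LOC101063282) was 13.5 ± 3.99 FPKM at spring tide and 23.6 ± 12.5 at neap tide. Its log2 difference was -0.57 (SE 0.33, or 0.45 with the 8 date means as samples). That difference became -1.14 without Waxing moon May and -0.012 without Waxing moon June. The level of epo was 6.95 ± 3.04 FPKM at spring tide and 5.83 ± 2.32 at neap tide, and its difference of 0.22 (SE 0.22) was 0.45 without Waning moon July and 0.0021 without Waning moon June. For vegfa the levels were 15.7 ± 3.29 FPKM at spring tide and 17.5 ± 4.67 at neap tide, with a difference of -0.13 (SE 0.14) that was -0.33 without Waxing moon May and 0.069 without Waxing moon June. The SE of epo and vegfa were as large as their differences, and the 2 tides overlapped in all 4 genes. The tide model held no week term, and neap dates fell on average 1 week after spring dates. Each difference, also over all genes, thus has 1 week of slope taken off. That week of slope was 0.25 for slc2a1, 0.16 for epo, 0.11 for vegfa and 0.0029 for pfkfb4. Without 1 date the weeks between the tides change, so the values given without a date mix slope and tide.

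Other measures moved with the tide as well. The summed FPKM of a library had a higher median at spring tide, but the tides overlapped. It was 519, 480 and 504 kFPKM at the neap date Waxing moon May, and 461, 486 and 500 kFPKM at the spring date New moon June. With this sum as a covariate the tide difference was 0.12 for pfkfb4 and -0.030 for slc2a1. Endothelial markers (19 rows, 18 tested) summed to between 173 and 215 FPKM at spring tide and 206 and 257 at neap tide, and 1 of them was higher and 3 were lower at spring tide. The 3 were cldn5, tie1 and an slco1c1 copy (LOC101072817), with log2 differences of -0.85, -0.40 and -0.93 (limma, adjusted p = 0.000913, 0.0225 and 0.00206), and the higher one was a pecam1 copy (LOC101069042, 0.32, adjusted p = 0.0297). Of the mural markers 2 of 11 were lower, pdgfrb and an rgs5 copy (LOC101075850). All 13 mural rows together summed to between 340 and 557 FPKM at spring tide (median 407) and 305 and 464 at neap tide (median 395). All 9 tested pituitary hormone rows had a tide difference above 0 (median 1.38), and 4 had an unadjusted p below 0.05 in limma. The only row past the threshold was lhb (LOC101078229), with a log2 difference of 3.20 (limma, adjusted p = 0.0461). With the 8 date means as samples 1 gene of all those tested passed for the tide. Most of the endothelial, mural and pituitary calls named here thus did not hold in that fit. The sums of the pituitary hormone rows had a median of 41970 FPKM over the spring libraries and 17870 FPKM over the neap libraries. Waxing moon May fish 2, at 499 FPKM, is among the neap libraries. Red blood cell markers summed to between 1612 and 7699 FPKM at spring tide and 801 and 5006 at neap tide, with 0 of 8 past the threshold in limma and 2 at an unadjusted p below 0.05. The part of these markers in the tide differences of the 4 genes was not tested.

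Whether the tide difference changed between lunar cycles was asked with an interaction term, a measure that played no role in the choice of the genes, and 0 of 17058 genes (0%) passed in limma, with 607 at an unadjusted p below 0.05. For vegfa the 2 spring dates of the second cycle averaged 16.3 FPKM and its neap dates 21.3, against 15.1 and 13.8 in the first cycle, an interaction of -0.49 (SE 0.27, limma, adjusted p = 0.993). The interaction was -0.58 (SE 0.47) for epo, -0.55 (SE 0.63) for slc2a1 and 0.16 (SE 0.21) for pfkfb4, each with an adjusted p of 0.993 in limma. Those of vegfa, epo and slc2a1 were negative and none passed. With the 8 date means as samples the SE of slc2a1 was 0.83. For slc2a1 the value was 0.55 without Waxing moon May, for epo 0.015 without New moon June, and for pfkfb4 -0.070 without Full moon July. With all 8 dates the interaction takes in no slope. Without 1 date it has 1 week of slope added or taken off, the measure by which genes were chosen, so these values are descriptions.

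Within the spring tides, new moon was compared with full moon at equal week, and 7 of 17058 genes (0.041%) passed in limma, 6 higher (0.0352%) and 1 lower (0.00586%) at new moon. With the 8 date means as samples, 0 passed. New moons fell 2 weeks before the full moons of their cycle, so a difference at equal week adds 2 weeks of slope, the measure by which genes were chosen, and the values of the 4 genes are descriptions. Over the new moons epo averaged 4.64 ± 0.278 FPKM, and over the full moons 9.26 ± 2.53 (SD, n = 2 dates), a log2 difference of -0.63 at equal week and -0.87 without the week. Likewise vegfa averaged 12.9 ± 0.811 FPKM at new moon and 18.5 ± 0.957 at full moon, a difference of -0.31 at equal week and -0.49 without it. In both genes every new moon date mean lay below every full moon date mean. For slc2a1 the difference was 0.76 at equal week, of which 0.50 was slope, and 0.26 without the week, an alternative added after the data had been seen. For pfkfb4 it was -0.17 and -0.16. Without 1 date the value of epo at equal week lay between -0.93 (without New moon May) and -0.11 (without New moon June), that of vegfa between -0.43 and -0.10 for the same 2 dates, and that of slc2a1 between 0.47 and 1.24.

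Within the neap tides, waxing moon was compared with waning moon at equal week, and 0 of 17058 genes (0%) passed in limma, with 230 at an unadjusted p below 0.05. The difference of slc2a1 (LOC101063282) was -0.73 at equal week and -1.23 without the week, with 16.9 ± 16.4 FPKM at waxing moon and 30.3 ± 4.46 at waning moon (SD, n = 2 dates). At equal week it was -1.76 without Waxing moon June and -0.10 without Waxing moon May. Those of vegfa, epo and pfkfb4 at equal week were -0.05, -0.09 and 0.02, and without the week -0.23, -0.34 and 0.03. The 2 waxing dates of slc2a1, 5.34 FPKM in May and 28.5 in June, stood on either side of most other dates.

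What was left of the differences between the 8 dates, once the tide and the slope were taken out, was tested against the spread between the fish of a date. This measure, too, is apart from the slope and the tide difference. Of 17058 genes, 3473 (20.4%) passed in limma, and 2 of the 4 genes were among them. The statistic was 9.54 for slc2a1 (limma, adjusted p = 0.00470), 4.88 for pfkfb4 (adjusted p = 0.0322), 3.75 for vegfa (adjusted p = 0.0645) and 3.40 for epo (adjusted p = 0.0818). The call of slc2a1 held without any 1 fish and was lost without Waxing moon May, its lowest date (3 fish, F = 2.48, limma, adjusted p = 0.259). That of pfkfb4 was lost without Waxing moon May, New moon June, Waxing moon June or Full moon July, and without any 1 of 6 fish (adjusted p up to 0.295 and 0.0765). Those were fish 3 of Waxing moon May, fish 2 of New moon June, fish 2 and 3 of Waxing moon June, and fish 2 and 3 of Full moon July. Conversely vegfa passed without the date Waning moon June (limma, adjusted p = 0.0334) or Waning moon July, and without fish 2 of the first or fish 1 of the second. The gene epo passed without the date Waxing moon June (limma, adjusted p = 0.0308) and without its fish 3, fish 2 of Waxing moon May or fish 3 of New moon June. With the library FPKM sum as a covariate neither slc2a1 (4.73, limma, adjusted p = 0.105) nor pfkfb4 (1.01, limma, adjusted p = 0.641) passed.

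Fish of the same date also differed, and these deviations from the date mean are independent of the date means by which the genes were picked. A fish high in slc2a1 for its date tended to be high in epo and in vegfa. Across the 24 libraries the deviations of epo and slc2a1 had a Pearson r of 0.683 (permutation within dates, adjusted p = 0.0106 over 6 pairs, raw p = 0.00229) and a Spearman rho of 0.715 (permutation, adjusted p = 0.00822), and lay on the same side of their date means in 18 of 24 fish. For vegfa and slc2a1 r was 0.636 (permutation, adjusted p = 0.0106, raw p = 0.00352) and rho 0.690 (permutation, adjusted p = 0.00822), with 19 of 24 fish on the same side. Without the 2 fish farthest from the median of the first-named gene, r was 0.641 and 0.618. At Waxing moon June, for instance, fish 2 had the highest vegfa, epo and slc2a1 of its date (25.4, 9.46 and 37.7 FPKM) and fish 3 the lowest of all 3 (18, 3.33 and 22). At Full moon June fish 1 was lowest in the 3 genes, at 15.9, 5.91 and 3.68 FPKM.

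The other pairs did not pass. The r of vegfa and epo was 0.495 (permutation, adjusted p = 0.0825, raw p = 0.0413), with rho 0.487 (permutation, adjusted p = 0.0835), 13 of 24 fish on the same side and 0.447 without the 2 farthest fish. With pfkfb4, r was 0.276 for vegfa (permutation, adjusted p = 0.492, rho 0.224), 0.061 for epo (adjusted p = 0.801, rho 0.187) and 0.060 for slc2a1 (adjusted p = 0.801, rho 0.0078). Of the 17057 tested genes beside epo, 15 (0.0879%), slc2a1 among them, had a within-date r with epo at least as high as slc2a1 had. Beside vegfa, 59 (0.346%), slc2a1 among them, had one with vegfa as high as slc2a1 had. Counted from slc2a1, 39 genes (0.229%), epo among them, were as high as epo. Likewise 83 (0.487%), vegfa among them, were as high as vegfa. For vegfa and pfkfb4 the shares were 16.8% counted from vegfa and 17.1% from pfkfb4. Without Full moon June fish 1 the r of epo and slc2a1 was 0.721 and its adjusted permutation p 0.0524. With the summed astroglial markers as a covariate, chosen after the data had been seen, the r of vegfa and slc2a1 was 0.584 (permutation, adjusted p = 0.0608). Endothelial, mural, red blood cell and pituitary markers, added in the same way, left both calls as they were.

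**Figure D2:**
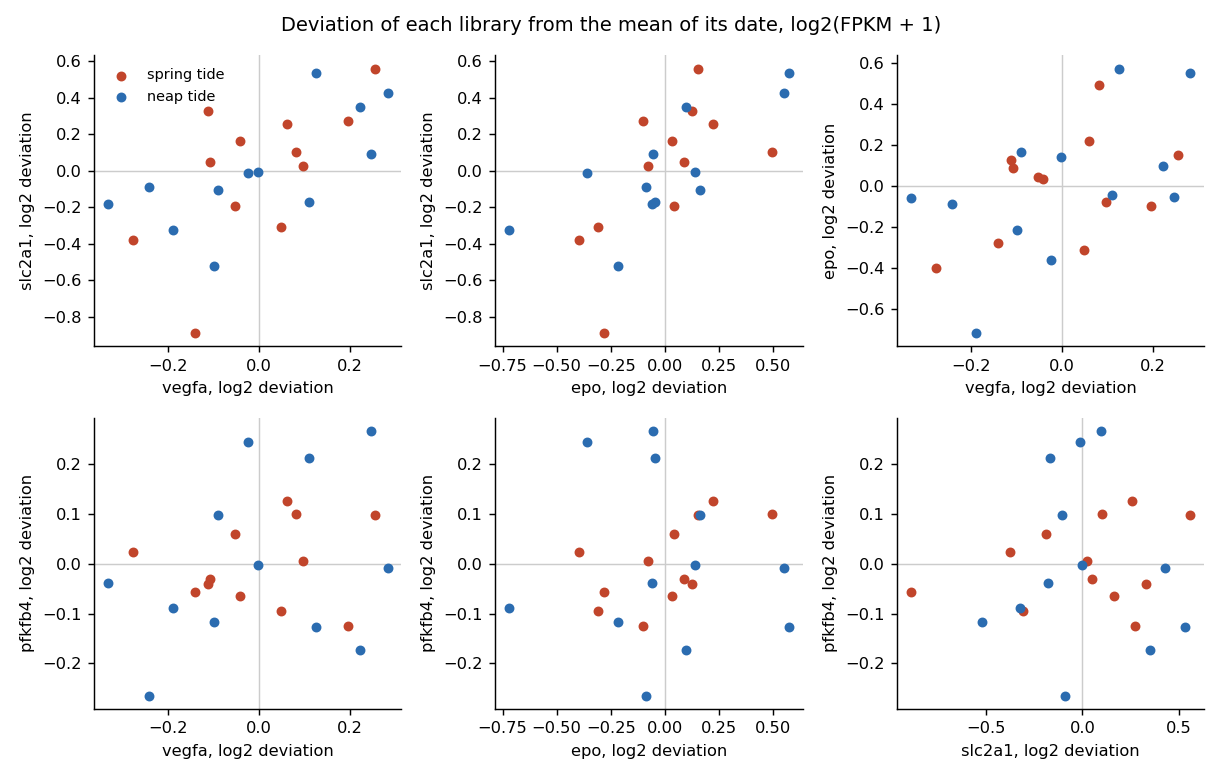
Deviation of each library from the mean of its date on the log2(FPKM + 1) scale for the 6 pairs of genes, 1 gene per axis; each point is 1 of 24 libraries, red at spring tide and blue at neap tide, and the grey lines mark 0. The points of epo against slc2a1 (r = 0.683) and vegfa against slc2a1 (r = 0.636) run upward, and those of the panels with pfkfb4 show no line (r between 0.060 and 0.276).

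Over all 24 libraries, date differences included, the levels of vegfa and epo went together with r = 0.725, those of vegfa and slc2a1 with 0.657 and those of epo and slc2a1 with 0.407, while pfkfb4 had -0.098 with vegfa, 0.313 with epo and -0.371 with slc2a1. These are descriptions, since the dates by which the genes were picked enter them. The 4 genes most like each one were taken by the highest r over the 24 libraries. For vegfa they were a lysine-specific demethylase 9 (LOC101067156, r = 0.858), a cryptochrome-1-like gene (LOC101062553, 0.814), p4ha1, a subunit of collagen prolyl 4-hydroxylase (0.801), and the oxygen sensor egln3 (0.796). For epo they were the signalling inhibitors smad6 (0.839) and smad7 (0.806), an endothelin receptor B-like gene (LOC101079790, 0.760) and a cyclin-dependent kinase inhibitor 1B-like gene (LOC101079162, 0.746). For slc2a1 they were pank4 (0.880), an LSM14A-like gene (LOC101071011, 0.865), a zinc finger protein-like gene (LOC101061425, 0.863) and ttc8 (0.861). For pfkfb4 they were a proteinase-activated receptor 3-like gene (LOC101078530, 0.928), an SH3 and PX domain protein 2A-like gene (LOC101065877, 0.913), tuft1 (0.905) and avpi1 (0.904). The sets share no gene.

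Copies of the same gene did not follow the same course. The table holds 4 rows named vegfa, and a vegfa-like copy (LOC101062196) had the highest mean, 18 FPKM against 16.6 for vegfa. That copy averaged 16.3, 25, 26.2 and 15.5 FPKM at the 4 dates of the first cycle and 18.9, 8.76, 24.6 and 8.84 at those of the second. It was lowest at Waxing moon June and Waning moon July, the 2 dates with the highest vegfa. Its slope was -0.09 per week (limma, adjusted p = 0.655), and it averaged 21.5 ± 4.67 FPKM over the spring dates and 14.5 ± 7.65 over the neap dates, a log2 difference of 0.63 (SE 0.22, limma, adjusted p = 0.0863). It differed between dates beyond tide and week (F = 9.55, limma, adjusted p = 0.00466). The other copies were lower, with means of 3.66 FPKM for LOC115248627 and 1.31 for LOC101067669.

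Of 5 rows named slc2a1, 2 were higher than LOC101063282, which averaged 18.5 FPKM. LOC101073552 averaged 78.0 FPKM with date means between 65.4 and 97.8, and LOC101074355 averaged 39.0 with date means between 33.1 and 43.8. Their slopes were 0.01 and 0.00 per week (limma, adjusted p = 0.964 and 0.994). At Waxing moon June, where LOC101063282 was near its peak, LOC101073552 was at its lowest. The other 2 rows, LOC101065106 and LOC101075710, had means of 0.693 and 0.153 FPKM and were not tested. The second pfkfb4 row, LOC101061593, averaged 17.3 FPKM with date means between 15.2 and 19.5 and a tide difference of 0.04 (limma, adjusted p = 0.740). Only 1 row was named epo.

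**Figure D3:**
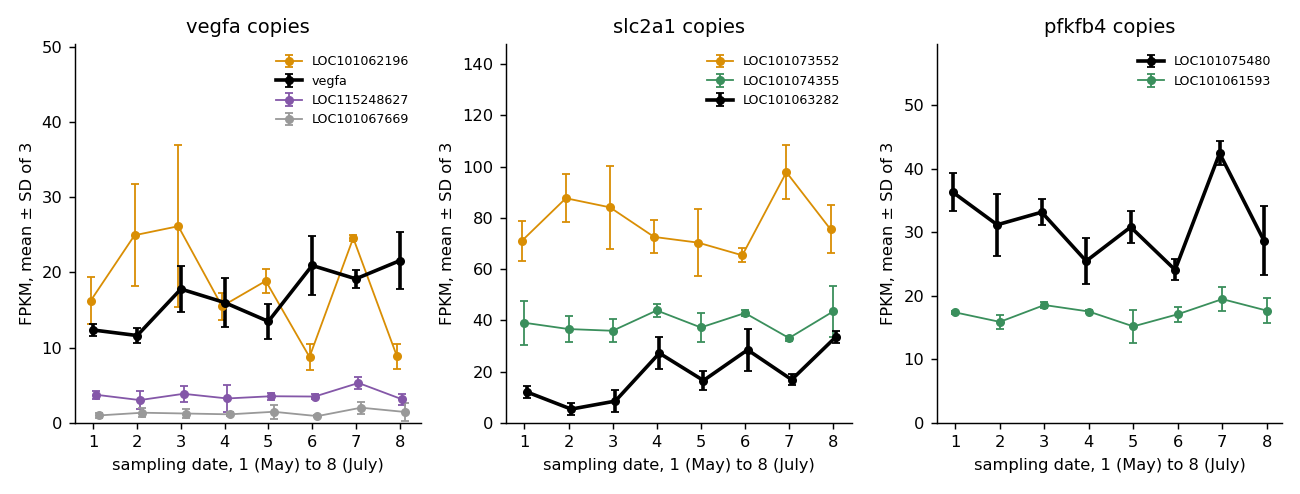
FPKM (vertical axes, mean with SD of 3 libraries as error bars) at the 8 sampling dates for the copies of vegfa, slc2a1 and pfkfb4 with a mean of at least 1 FPKM; the black line is the gene described here and the coloured lines are its copies. The slc2a1 copies LOC101073552 and LOC101074355 lie above LOC101063282 at every date, and the vegfa copy LOC101062196 drops to 8.76 FPKM at date 6 where vegfa reaches 20.9.

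The rest of the pathway was read from a list of hypoxia genes that left 99 rows beside the 4, of which 86 passed the filter. The list names hif1al, hif3a, pgf, kdrl, slc2a3, pfkfb1, ca9, bnip3l, ankrd37, kdm3a and cited2 matched no row and were not checked. For the slope over the dates 0 of the 86 passed in limma and 10 (11.6%) had an unadjusted p below 0.05, 5 up and 5 down, against 8.48% of all tested genes, 884 up and 562 down. Their median slope was 0.011 per week with 56 of 86 above 0, against 0.0050 for all genes. The oxygen sensors and their partners (12 tested) had slopes of 0.01 for hif1a (limma, adjusted p = 0.914), 0.06 for a hif1a-like copy (LOC101062698, adjusted p = 0.535), -0.10 for epas1 (adjusted p = 0.535) and 0.07 for egln3 (adjusted p = 0.774). Those of the HIF inhibitor hif1an and of vhl (LOC101068717) were 0.04 and 0.04 (limma, adjusted p = 0.669 and 0.578). Levels of hif1a stayed between date means of 37 and 43.6 FPKM. The epas1 row given here averaged 4.81 FPKM. A second row of that product, LOC101067536, averaged 32.15 FPKM, and its slope and tide difference are not given. Of the receptors of the VEGF family, kdr had a slope of 0.01 and flt1 one of 0.02 (limma, adjusted p = 0.946 and 0.838). The erythropoietin receptor epor (LOC101071352) had one of -0.04 (limma, adjusted p = 0.914). The smallest p of the list belonged to the lipase inhibitor angptl4 and its copy LOC101061143, at -0.15 and -0.27 per week (limma, adjusted p = 0.369 and 0.224), the opposite direction to vegfa, epo and slc2a1.

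For the tide 0 of the 86 passed in limma and 17 (19.8%) had an unadjusted p below 0.05, 12 higher and 5 lower at spring tide. Of all tested genes 4512 (26.5%) did, 1366 higher and 3146 lower. Their median difference was 0.0038 with 44 of 86 above 0, against a median of -0.039 for all genes. The erythropoietin receptor epor (LOC101071352) averaged 9.75 ± 4.45 FPKM over the spring dates and 5.72 ± 1.58 over the neap dates (SD), a log2 difference of 0.65 (SE 0.22, limma, adjusted p = 0.0731). The 2 VEGF receptor rows named here lay the other way, with kdr at 12.1 ± 1.27 FPKM at spring tide and 14.5 ± 1.70 at neap tide (log2 difference -0.26, limma, adjusted p = 0.115), and flt1 at 19.8 ± 0.756 and 22.8 ± 1.53 (-0.20, limma, adjusted p = 0.144). A kdr copy, LOC101071220, averaged 15.8 FPKM, and its difference is not given. The 15 tested vessel ligands and receptors had a median difference of 0.125, with 9 above 0. Differences of the sensors were 0.03 for hif1a, 0.18 for the lower epas1 row, -0.13 for egln3, -0.18 for hif1an and 0.07 for vhl (LOC101068717), with adjusted p of 0.217 or more in limma.

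Differences between dates beyond tide and week were called in 19 of the 86 list genes (22.1%), close to the 20.4% of all genes. They were 3 of 12 oxygen sensors and partners, 3 of 15 vessel genes, 2 of 4 genes of the erythropoietin axis, 5 of 34 genes of glucose uptake and glycolysis and 6 of 21 other targets. In the erythropoietin axis these were epor (LOC101071352, F = 6.18, limma, adjusted p = 0.0166) and the transferrin receptor tfrc (F = 14.4, limma, adjusted p = 0.00126), named after its values were seen. Both had a high date mean at Full moon July, 12.2 ± 2.82 FPKM for epor and 52.2 ± 1.41 for tfrc (SD, n = 3), the date of the highest epo. The mean of tfrc was its highest there, while that of epor was higher at Full moon June (14.7 ± 3.09). Red blood cell markers, too, had their highest mean sum at Full moon July (4547 ± 2850 FPKM, SD, n = 3). Of these markers 5 of 8 (62.5%) were called for differences beyond tide and week. The part of red blood cells in the levels of epor, tfrc and epo at that date was not tested.

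**Figure D4:**
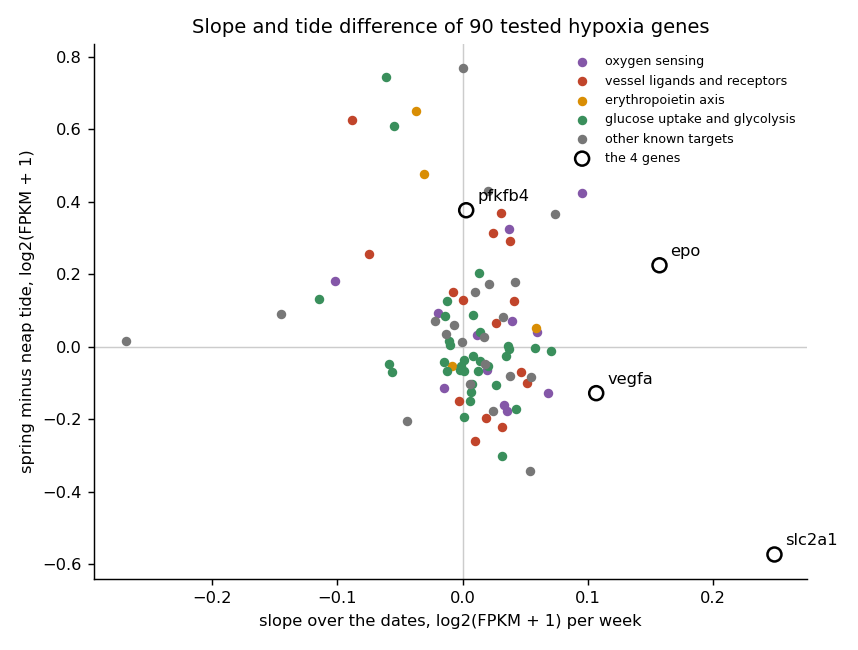
Slope over the dates in log2(FPKM + 1) per week (horizontal axis) against the spring minus neap difference in log2(FPKM + 1) (vertical axis) for 90 tested hypoxia genes, coloured by role; open circles mark the 4 genes. The points of slc2a1 (slope 0.25), epo (0.16) and vegfa (0.11) lie to the right of the other list genes, as their choice implies, and pfkfb4 lies at slope 0.0029 with a tide difference of 0.38.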

How the data were processed

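Per the labels' protocols, mRNA was taken from total RNA on poly-T beads and sequenced in pairs from stranded libraries. Per the submitters' processing notes, HISAT2 2.0.4 and RSEM 1.2.12 were used. The assembly to which reads were aligned was not given in the sources used here. The deposited values are the authors' FPKM, with 24935 rows and 24 libraries, and no read counts were used. Gene names and products come from the deposited table.

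Tests ran on log2(FPKM + 1), a scale on which fold changes of low genes come out too small, and genes with a mean of at least 1 FPKM were tested (17058). Groups follow the sampling point in the labels. The tide follows the moon phase, the week is the number of the date from 1 to 8, and the lunar cycle is the first or the last 4 dates. Models were fitted in R 4.3.3 with limma 3.58.1 and statmod 1.5.0, an intensity trend and Benjamini-Hochberg adjustment over all tested genes, with a threshold of 0.05. The sampling date was a random block, with a within-date correlation of 0.276 for the slope, 0.264 for the tide, 0.290 for the interaction and 0.229 for the moon phases within a tide. The differences among dates beyond tide and week were tested in a model of the 8 dates without a block, which uses the spread within dates only. A date cannot be told apart from whatever else differed between the catches.

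Deviations from date means were correlated over 24 libraries with two-sided permutation within dates (100000 resamples, numpy 2.4.6), adjusted over 6 pairs. Both procedures were run on simulated data as a check of the code. In the limma runs every simulated gene had date effects in the same proportion to its spread within dates. For the differences among dates there were none beyond the planted ones. Genes with larger date effects were thus not covered. The alternatives were another pseudocount, other filters and scalings, no intensity trend, the library FPKM sum as a covariate, date means as samples, no week term for the moon phases, a replicate block, and leaving out each library or date.

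The 4 genes, the hypoxia list and the marker lists were chosen with earlier results of these data known. List genes were matched by symbol, or by product name where the symbol is an LOC number. The list genes named are those past the threshold for slope or tide (there were none), hif1a, epas1, egln3, hif1an, vhl, kdr, flt1 and epor, the copies of the 4 genes, and for each gene the 4 with the highest r over all libraries. Further genes named are called so in the text, and angptl4 and the markers past the threshold were likewise named after their values were seen. Libraries of the same date had a median r of 0.974 over the tested genes, and 0 of 276 pairs held identical values. No library was left out.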

Additional observations from a re-analysis of the deposited data

Results flagged for a closer look

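Of 24 groups searched for a value far from the rest, 1 was singled out, where chance alone singles out about 1 in 20 groups not chosen by their values. Each group held the libraries of 1 moon phase or the 4 date means of 1 tide, for 1 of the 4 genes. The same levels gave the slope and the tide difference by which the genes were chosen, so the flag is a description with no test. Among the 4 neap dates, the mean slc2a1 level of Waxing moon May was 2.60 on the log2(FPKM + 1) scale, and its gap to the nearest other neap date took up 0.876 of the range of the 4 dates, above the critical value of Dixon's test at the 95% level. All 3 fish of Waxing moon May, at 3.22, 7.78 and 5.01 FPKM, were below every fish of the other neap dates. The FPKM sums of these 3 libraries were 519, 480 and 504 kFPKM, and those of the other neap libraries lay between 435 and 484 kFPKM. The part of the FPKM sum in the slc2a1 level of that date was not tested.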

How the results depend on the processing

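The tide and the season varied between 8 dates only, so 1 date can carry a result, and depth is unknown, so it sets no limit that can be given. The slopes of vegfa and epo moved by less than the SE of the reported slope (0.028 and 0.047) under every alternative run. Left out 1 at a time, a library or date gave slopes between 0.108 and 0.344 for slc2a1 and between -0.032 and 0.031 for pfkfb4, with 0 to 10 genes called over all. The same range of the tide difference was -0.325 to 0.069 for vegfa, 0.0021 to 0.447 for epo and -1.14 to -0.012 for slc2a1, with 3 to 4133 genes called. That of the interaction was -1.65 to 0.546 for slc2a1, -1.18 to 0.015 for epo and -0.070 to 0.382 for pfkfb4 (0 to 1 genes). Leaving out a date also changed how many weeks of slope the tide difference and the interaction took in. New minus full moon ranged from -0.478 to 0.011 for pfkfb4 (0 to 431 genes), and waxing minus waning moon from -0.149 to 0.294 for pfkfb4, -0.411 to 0.165 for vegfa and -0.431 to 0.109 for epo (0 to 1 genes). The F among dates ranged from 2.44 to 5.45 for vegfa, 0.303 to 6.23 for epo, 2.48 to 17.2 for slc2a1 and 2.13 to 7.77 for pfkfb4 (608 to 4153 genes), and the within-date r from 0.611 to 0.721 for epo and slc2a1, -0.056 to 0.245 for epo and pfkfb4 and -0.031 to 0.177 for slc2a1 and pfkfb4.

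The library FPKM sum as a covariate changed most: 40 genes were called for the slope, 5 for the tide, 17 for new against full moon and 325 among dates (3 of 86 list genes). It gave a tide difference of -0.030 for slc2a1 and 0.117 for pfkfb4, and for pfkfb4 an interaction of -0.021, a new minus full difference of 0.054 and a waxing minus waning difference of -0.052. The F among dates was then 4.73 for slc2a1 (limma, adjusted p = 0.105) and 1.01 for pfkfb4 (adjusted p = 0.641). Rescaling to a common sum gave 1 gene called for the slope, 2974 for the tide (7 of 86 list genes, all lower), 3 for new against full moon and 5851 among dates. It gave pfkfb4 a tide difference of 0.252 and a waxing minus waning difference of -0.016, and F of 5.08 for vegfa (limma, adjusted p = 0.0188) and 2.27 for pfkfb4 (adjusted p = 0.157). Without the filter 11 genes were called for the slope and 22 for new against full moon, with a minimum mean of 5 FPKM 604 for the tide, with median-ratio scaling 7 and with quantile normalization 6 for the slope, and with date means as samples 1 for the tide and 0 for new against full moon. Regressing out astroglial markers, added later, gave a within-date r of 0.584 for vegfa and slc2a1 (permutation, adjusted p = 0.0608), -0.0020 for epo and pfkfb4 and -0.115 for slc2a1 and pfkfb4, and red blood cell markers -0.019 for epo and pfkfb4. Without the week term, likewise added later, 3 genes were called for new against full moon. The causes of these changes were not tested.

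The replicate numbers did not pair the samples: libraries with the same number at different dates deviated together with a median r of 0.016 over 84 pairs, against -0.0082 over 168 pairs with different numbers, and 8 of 24 libraries matched best with their own number. With the replicate block 854 genes were called for the tide and 3212 among dates, the within-date r of epo and slc2a1 was 0.676, and no call of the 4 genes changed.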
